A study of Homo sapiens with 12 samples.

Results

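The protein-folding machinery of the cytosol and the mitochondria was followed in poly(A)+ RNA-seq libraries of 3 human carcinoma lines grown in normoxia or exposed for 24 h to 1% O2, called hypoxia here. The genes were chosen by symbol and family: the HSP70 and HSP110 genes, both cytosolic HSP90 genes, the A and B classes of J proteins, the small heat shock proteins of the HSPB series, the subunits of the cytosolic chaperonin TRiC, the mitochondrial chaperonin pair HSPD1 and HSPE1, the BAG nucleotide exchange factors and the heat shock factors HSF1, HSF2 and HSF4. The endoplasmic reticulum chaperones HSPA5, DNAJB9 and DNAJB11 were left out. This gave 59 of the 25369 genes in the table. RKO is an established line from a colon carcinoma, A549 from a lung adenocarcinoma and H460 from a large cell carcinoma of the lung. RKO and A549 were grown in DMEM and H460 in RPMI, so line and medium cannot be told apart when H460 is compared with the others. Each line contributed 2 normoxic and 2 hypoxic libraries, 12 in all. The study describes its RNA-seq replicates as independent biological ones, while the labels only number them.

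Chaperones bind proteins that are unfolded or still being made and help them to fold. HSP70 proteins hold short stretches of chain in a cycle of ATP binding that J proteins start and that nucleotide exchange factors, the BAG and HSP110 proteins among them, reset. HSP90 acts later on near-native clients such as kinases and steroid receptors, TRiC encloses actin, tubulin and other clients in a ring-shaped chamber, and HSPD1 with its lid HSPE1 does the same in the mitochondrial matrix. Small heat shock proteins hold unfolding proteins in solution without using ATP. When unfolded protein accumulates, HSF1 binds heat shock elements, inverted repeats of GAA, in the promoters of many of these genes.

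The promoter windows below show where such repeats lie in members on which the results turn. RefSeq windows on GRCh38.p14, 250 bases before to 50 bases after each gene's start, were matched by symbol for 50 of the 59 genes. A heat shock element of 3 units (GAANNTTCNNGAA or TTCNNGAANNTTC, which together cover both strands) was found in 4 of the 50 (8.0%), namely DNAJA1, DNAJB6, HSPA6 and HSPA8, against 0.487% of all 27305 windows. The shorter pair of units (GAANNTTC or TTCNNGAA, contained in the longer motif) was found in 16 of the 50 (32.0%), against 13.7% of all windows. The core of the hypoxia response element (ACGTG or CACGT) was found in 10 of the 50 (20.0%), against 21.6%. A match is a description of the letters, not evidence of binding. The windows hold only the first start listed for each symbol, so a missing match does not show that a gene lacks the motif. HSPA8 is shown because it moved in opposite directions in RKO and H460 and holds 4 matches, DNAJA1 because it has the highest RPKM of the J proteins averaged over the 12 libraries, DNAJB6 because it carries a full element and was called in no line, and HSPE1 because its window shares 204 bases with that of HSPD1, while in H460 HSPE1 was called lower and HSPD1 was not called. Capitals mark each match to the pair of units in the first 3 sequences and to the hypoxia core in the last, 5′ to 3′ on the gene's own strand.
HSPA8 (chr11:123062087-123062386, minus strand): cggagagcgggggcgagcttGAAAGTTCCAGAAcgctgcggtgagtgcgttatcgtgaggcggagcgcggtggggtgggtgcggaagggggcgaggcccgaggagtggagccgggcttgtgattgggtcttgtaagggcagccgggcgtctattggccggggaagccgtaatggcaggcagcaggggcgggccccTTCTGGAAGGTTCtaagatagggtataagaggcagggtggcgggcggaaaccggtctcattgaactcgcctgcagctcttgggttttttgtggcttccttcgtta
DNAJA1 (chr9:33025023-33025322, plus strand): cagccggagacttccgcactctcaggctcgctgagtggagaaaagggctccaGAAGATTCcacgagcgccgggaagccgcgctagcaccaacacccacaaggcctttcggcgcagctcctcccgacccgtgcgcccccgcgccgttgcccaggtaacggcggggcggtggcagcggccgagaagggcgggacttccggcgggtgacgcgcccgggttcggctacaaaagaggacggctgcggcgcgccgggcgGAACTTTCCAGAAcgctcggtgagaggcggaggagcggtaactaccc
DNAJB6 (chr7:157336754-157337053, plus strand): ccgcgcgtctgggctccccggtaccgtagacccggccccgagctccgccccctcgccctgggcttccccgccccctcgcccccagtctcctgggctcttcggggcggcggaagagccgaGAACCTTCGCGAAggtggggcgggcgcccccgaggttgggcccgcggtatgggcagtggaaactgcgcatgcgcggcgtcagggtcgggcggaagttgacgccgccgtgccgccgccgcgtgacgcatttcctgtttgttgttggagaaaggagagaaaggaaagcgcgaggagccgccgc
HSPE1 (chr2:197500129-197500428, plus strand): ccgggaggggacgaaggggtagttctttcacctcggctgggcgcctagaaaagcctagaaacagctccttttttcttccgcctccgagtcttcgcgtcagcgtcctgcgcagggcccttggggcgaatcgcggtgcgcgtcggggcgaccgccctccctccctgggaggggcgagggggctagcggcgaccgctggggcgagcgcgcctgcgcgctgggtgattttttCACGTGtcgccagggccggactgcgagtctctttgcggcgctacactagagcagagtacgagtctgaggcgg

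The libraries held between 27350424 and 41757584 counted reads. CA9 and NDRG1, targets of the hypoxia-inducible factors used here to check the labels, were higher in every hypoxic library than in the normoxic libraries of the same line, CA9 for example at 4.08 and 2.03 CPM (counts scaled to a common library total) in normoxia and 56.2 and 77.2 in hypoxia in RKO. Markers of the labelled tissues were only partly present. Of the 4 epithelial genes, CDH1 lay between 0.0113 and 0.0231 RPKM in RKO and at most at 0.109 in H460, and EPCAM at 2.77 to 4.01 in RKO and at most at 0.305 in H460, while KRT18 was present in every line, from 60.7 RPKM upward in RKO, at 600 to 851 in A549 and 237 to 348 in H460, and KRT8 at 3.82 to 5.93, 598 to 820 and 193 to 354. In RKO the intestinal factor CDX2 was present (4.1 to 7.14 RPKM) and the other 3 intestinal genes, VIL1, CDH17 and LGALS4, did not exceed 0.0468. Of the 4 lung genes, SFTPB and SFTPC did not exceed 0.0659 RPKM in any library, NAPSA lay at 2.49 to 3.38 in A549 and at most at 0.51 in H460, and NKX2-1 reached 0.0764 in A549 and 1.15 in H460. Of the 3 leukocyte genes, PTPRC did not exceed 0.0117 RPKM and CD3E was at 0 in every library, while CD68, a lysosomal protein, was at 252 to 357 RPKM in RKO, 62.7 to 85.1 in A549 and 10.5 to 22.7 in H460. Of the 3 fibroblast genes, COL1A1 lay at 8.3 to 69.7 RPKM in A549, and neither COL3A1 nor PDGFRB exceeded 2.79 in any library. The part of these markers in the results was not tested. Reads of the 59 genes made up 2.189% and 2.002% of all counts in normoxic RKO libraries and 1.136% and 1.131% in hypoxia. In H460 the shares were 1.109% and 1.066% in normoxia and 0.7697% and 0.7832% in hypoxia. In A549 they were 1.49% and 0.9647% in normoxia and 1.346% and 0.9724% in hypoxia, so replicate 1 stood above replicate 2 in both conditions and the conditions overlapped. In bulk RNA, fewer cells of a kind and less RNA per cell cannot be told apart.

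Values below are CPM scaled within each line by the trimmed mean of M values (TMM), given for both replicates. Fold changes are hypoxia over normoxia from edgeR's quasi-likelihood test, ± SE on the log2 scale with n = 2 per group. A gene was called at a Benjamini-Hochberg adjusted p under 0.1 over all genes tested together with a fold change over 1.5. Of the 59 genes, 46 passed the filter on low counts in RKO, 48 in A549 and 48 in H460. There were 44 that passed in all 3 lines and 7 that passed in none (DNAJB3, DNAJB7, DNAJB8, HSPA7, HSPB3, HSPB7 and HSPB9).

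In RKO most of the folding machinery fell: 27 of the 46 tested genes (58.7%) were called lower and 3 (6.52%) higher, against 15.1% and 18.8% of all 12817 genes tested. The median log2 fold change of these genes was −0.66, against 0.01 over all genes. In H460 the response was split, with 19 of 48 (39.6%) called lower and 7 (14.6%) higher, against 27.3% and 24.6% of all 14080 genes, and a median of −0.18, against −0.04. In A549 only HSF4 was called, 1 of 48 (2.08%) higher and 0 lower, against 2.22% and 0.456% of all 14251 genes, with a median of −0.02, against −0.01. At an unadjusted p under 0.05 (edgeR), 4 members were lower (BAG5, DNAJA3, HSPA14 and HSPA9) and 5 higher in A549. Over all 14251 genes, 2363 passed that threshold in either direction. DESeq2 called 2 members higher and 0 lower in A549, against 4.27% and 1.85% of all genes. Both RKO and H460 called 21 of the members, 70% of the RKO calls and 80.8% of the H460 calls, against 58.1% and 34.6% over all genes. The direction was the same for 19 of the 21 (90.5%, against 86.4% of the 2525 genes called in both lines) and opposite for 2 (9.52%, against 13.6%), HSPA8 and HSP90AB1.

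The A549 counts depended on the replicates. With the replicate number as a block, 8 of 48 genes were called higher and 0 lower in A549, against 8.34% and 5.07% of all genes. The 8 were HSF4, DNAJB2, DNAJB13, HSPA8, HSPA2, HSPA1A, HSPA1B and HSPA1L. Leaving out normoxia replicate 1 gave 4 higher and 0 lower, against 2.11% and 1.12% of all genes. Leaving out normoxia replicate 2 gave 2 and 0, against 2.33% and 0.822%. Leaving out hypoxia replicate 1 gave 5 and 6, against 7.7% and 5.34%, and leaving out hypoxia replicate 2 gave 1 and 0, against 1.2% and 0.484%. The 6 lower genes without hypoxia replicate 1 included CCT6A (−0.80) and DNAJA3 (−0.69). In RKO 19 of the 27 lower genes were called each time 1 library was left out. The other 8 were CCT8, DNAJA2, DNAJB12, HSP90AA1, HSPA14, HSPA1A, HSPA6 and HSPA9. In H460 16 of the 19 lower genes and 4 of the 7 higher genes were called every time. Scaling by library totals alone, which moved the median of all H460 genes by −0.35, gave 3 higher and 21 lower members there, against 14.7% and 40.9% of all genes.

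**Figure D1:**
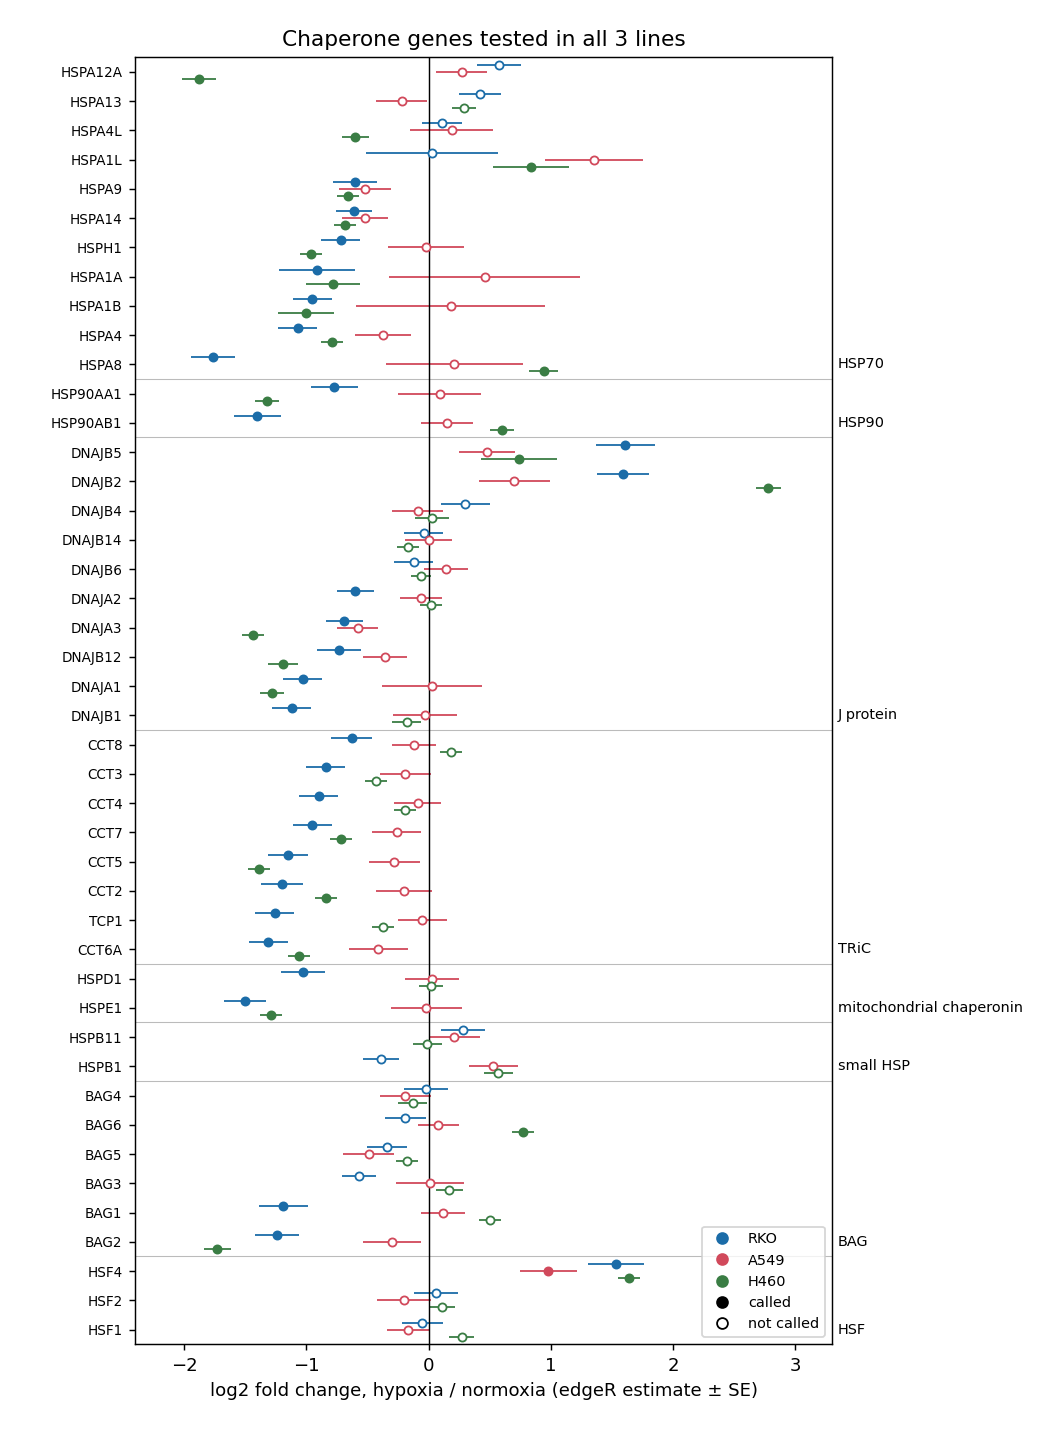
Log2 fold change, hypoxia over normoxia, of the chaperone genes that passed the filter in all 3 lines, grouped by family; points are edgeR estimates with bars of 1 SE, filled where called (n = 2 libraries per group). All 8 TRiC subunits lie at or below −0.63 in RKO (blue), A549 points (red) are open except HSF4, and HSPA8 and HSP90AB1 lie on opposite sides of 0 in RKO and H460 (green).

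Among the heat shock factors, HSF4 was the one called. HSF4, a factor with a main role in the lens, was at 11.9 and 19.7 CPM in normoxia and 42.3 and 49.5 in hypoxia in RKO. In A549 it was at 26.3 and 32.3 CPM in normoxia and 47.1 and 68.4 in hypoxia, and in H460 at 79.1 and 87 in normoxia and 253 and 264 in hypoxia. The conditions did not overlap in any line. The log2 fold changes were 1.53 ± 0.23 in RKO (edgeR adjusted p = 0.000804), 0.98 ± 0.23 in A549 (edgeR adjusted p = 0.0902) and 1.64 ± 0.09 in H460 (edgeR adjusted p = 2.66e-08). The A549 call was lost without normoxia replicate 1 (0.84, edgeR adjusted p = 0.165) and without hypoxia replicate 2 (0.68, edgeR adjusted p = 0.44). HSF4 overlaps FBXL8 on the same strand of chromosome 16 (67197288 to 67203848 on GRCh37), and FBXL8, which encodes an F-box protein, also stood higher in hypoxia in RKO (log2 fold change 1.63) and H460 (1.48), with 0.85 in A549 not called. The part of FBXL8 in the HSF4 counts was not tested. No difference between lines in the response of HSF4 was called in the fit without the replicate block, the smallest adjusted p being 0.127 (edgeR, A549 against H460). With the block, A549 differed from RKO (RKO minus A549 0.65, edgeR adjusted p = 0.0364) and from H460 (A549 minus H460 −0.68, edgeR adjusted p = 0.0153). HSF1, the main activator of the heat shock response, was at 162 and 200 CPM in normoxic and 193 and 157 in hypoxic RKO libraries. Its log2 fold changes, −0.05 ± 0.17 in RKO, −0.17 ± 0.17 in A549 and 0.27 ± 0.10 in H460, were not called. HSF2, which can form mixed trimers with HSF1, had 0.06 ± 0.18, −0.20 ± 0.22 and 0.11 ± 0.11 and was not called either. The H460 values of both change sign, to −0.08 and −0.24, when libraries are scaled by their totals alone. These are transcript levels, and HSF1 activity is set largely on the protein.

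HSPA8, the constitutive cytosolic HSP70, went in opposite directions in 2 lines. In RKO it was at 2550 and 2280 CPM in normoxia and 659 and 763 in hypoxia. It fell there to 0.294 times its normoxic level, a log2 fold change of −1.76 ± 0.18 (edgeR adjusted p = 0.000128). In H460 it was at 558 and 439 CPM in normoxia and 987 and 931 in hypoxia, a rise of 1.92-fold (log2 0.94 ± 0.12, edgeR adjusted p = 1.84e-05). The difference between the lines was itself called in the fit of all 12 libraries, with RKO below H460 by −2.66 ± 0.65 (edgeR adjusted p = 0.00763).

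In A549 the replicates of HSPA8 stood further apart than the conditions. It was at 2460 CPM in normoxia replicate 1 and 477 in normoxia replicate 2, a ratio of 5.15, and at 1930 and 1460 in hypoxia. Of the 14251 genes tested in A549, 16, HSPA8 included, had normoxic replicates at least that far apart, whichever replicate was the higher. That count used log2 ratios of CPM + 0.1. The stress-inducible HSPA1A stood at 86.9 and 8.09 CPM in normoxia and 89.2 and 41.6 in hypoxia, and its near-identical copy HSPA1B at 62.8 and 5.71 in normoxia and 50.5 and 26.9 in hypoxia. HSPA2, best known from the testis, was at 63.3 and 22.1 CPM in normoxia and 72.6 and 76.8 in hypoxia. The J protein DNAJA1 was at 416 and 153 CPM in normoxia and 371 and 211 in hypoxia. In each of these 5 genes normoxia replicate 2 was the lowest of the 4 libraries. They were the only tested members that differed over 2-fold between the normoxic A549 replicates, 10.4% of the 48 against 3.16% of all genes, and no member did so in RKO or H460. Within pairs of the same replicate number, HSPA8 had log2 ratios of −0.35 and 1.62 and HSPA1A 0.04 and 2.35. With the replicate block HSPA8 was called higher in A549 (0.63 ± 0.23, edgeR adjusted p = 0.0551), as were HSPA1A (1.15 ± 0.27), HSPA1B (0.89 ± 0.30) and HSPA2 (0.99 ± 0.21). Without normoxia replicate 1, HSPA8 came to 1.83 (edgeR adjusted p = 0.00489), HSPA1A to 3.01 and HSPA1B to 2.76, and without hypoxia replicate 2 HSPA1A was called at 0.91.

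**Figure D2:**
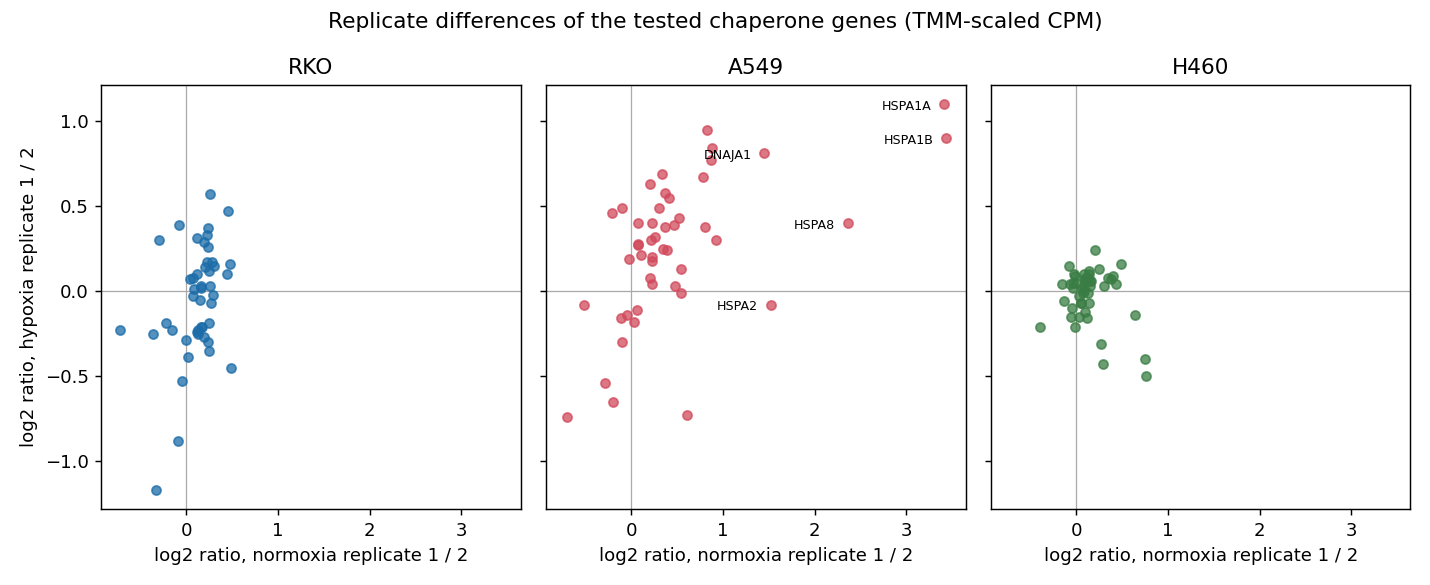
Log2 ratio of replicate 1 to replicate 2 in normoxia (x) and in hypoxia (y) for the tested chaperone genes of each line, from TMM-scaled CPM, 1 point per gene. In A549 the labelled genes, HSPA1A, HSPA1B, HSPA8, HSPA2 and DNAJA1, lie beyond a log2 ratio of 1 in normoxia, where no gene of RKO or H460 lies.

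Most of the other HSP70 genes that were called fell. Of the 12 HSP70 and HSP110 genes tested in RKO, 8 (66.7%) were called lower and 0 higher, against 15.1% and 18.8% of all genes. Of the 12 tested in H460, 8 (66.7%) were lower and 2 (16.7%, HSPA8 and HSPA1L) higher, against 27.3% and 24.6%. HSPA4, an HSP110 protein that acts as an exchange factor for HSP70, was at 533 and 443 CPM in normoxia and 226 and 237 in hypoxia in RKO (log2 −1.07 ± 0.16, edgeR adjusted p = 0.000755). In H460 it was at 202 and 190 in normoxia and 117 and 110 in hypoxia (−0.79 ± 0.09, edgeR adjusted p = 6.57e-06). The related HSPH1 fell in both lines as well, by 0.72 in RKO and 0.96 in H460 on the log2 scale. HSPA9, the mitochondrial HSP70 that pulls imported proteins into the matrix, was at 1240 and 1090 CPM in normoxia and 847 and 694 in hypoxia in RKO, and at 1080 and 1040 and then 654 and 687 in H460, with log2 fold changes of −0.60 ± 0.18 and −0.66 ± 0.09. The RKO call was lost without normoxia replicate 1 (−0.50) and without hypoxia replicate 2 (−0.44). HSPA14, a ribosome-associated HSP70, fell in both lines too, by 0.61 and 0.68, and its RKO value lay under the fold threshold without normoxia replicate 1 (−0.57) or hypoxia replicate 1 (−0.58). HSPA1L was called higher in H460 at 0.916 and 0.73 CPM in normoxia and 1.23 and 1.69 in hypoxia, a call lost without normoxia replicate 2 (0.64) and without hypoxia replicate 2 (0.61).

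HSPA12A, a distant relative of HSP70, separated H460 from the other lines. It was at 36.6 and 48.4 CPM in normoxia and 10.7 and 12.3 in hypoxia in H460, a log2 fold change of −1.88 ± 0.14 (edgeR adjusted p = 2.94e-07) and the lowest of the tested members there. In RKO it was at 30.6 and 30.1 CPM in normoxia and 39.2 and 51.5 in hypoxia (0.58 ± 0.18, a fold change of 1.49, just under the threshold), and in A549 at 87.9 and 60.6 and then 89 and 89.6 (0.27 ± 0.21, not called). The RKO value was called without hypoxia replicate 1 (0.80), with scaling by library totals (0.67), over 5 CPM (0.62), in the fit of all 12 libraries (0.64) and with limma at a pseudocount of 0.1 (0.64), and was not called in the other 8 alternative fits. The difference from H460 was called for RKO (2.50 ± 0.28, edgeR adjusted p = 5.08e-05) and for A549 (2.15 ± 0.28, edgeR adjusted p = 0.000184). HSPA1A and HSPA1B were called lower in RKO and H460, at low levels except for HSPA1B in RKO. HSPA1A was at 5.94 and 4.2 CPM in normoxia and 2.26 and 3.13 in hypoxia in RKO, while HSPA1B was at 138 and 116 and then 61.5 and 70.2. In H460 HSPA1A was at 22.4 and 13.3 and then 8.88 and 11.7, a call lost without normoxia replicate 1 (−0.40), and HSPA1B was at 21.8 and 12.9 and then 7.08 and 10.1. In RKO the HSPA1A call was lost without normoxia replicate 1 (−0.64) and without hypoxia replicate 1 (−0.65). Reads that fit both copies can be split or lost in counting, and the rows of HSPA1A, HSPA1B, HSPA1L and BAG6 pool alternate haplotypes of chromosome 6, with inflated lengths, so their levels are uncertain.

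DNAJB2, a J protein of neurons and muscle that also delivers clients to the proteasome, rose the most among the tested members in H460. It was at 20.3 and 18.5 CPM in normoxia and 129 and 136 in hypoxia there, a 6.85-fold rise (log2 2.78 ± 0.10, edgeR adjusted p = 1.4e-09). In RKO it was at 33.9 and 28.2 CPM in normoxia and 112 and 75.4 in hypoxia, a 3.02-fold rise (1.59 ± 0.21, edgeR adjusted p = 0.000364). In A549 it was at 38 and 61.9 CPM and then 60.9 and 102, where the conditions overlapped by a narrow margin. The A549 value of 0.70 was not called (SE 0.29, edgeR adjusted p = 0.271), but was with the replicate block (SE 0.14, edgeR adjusted p = 0.000543), without normoxia replicate 2 (1.10) and without hypoxia replicate 1 (1.02). The rise was larger in H460 than in A549 by 4.2-fold (A549 minus H460 −2.07 ± 0.37, edgeR adjusted p = 0.00147) and than in RKO by 2.19-fold (−1.13 ± 0.37, edgeR adjusted p = 0.0338). DNAJB5, a B-class J protein, rose in RKO from 10.7 and 7.82 to 32.8 and 23.6 CPM (1.61 ± 0.24, edgeR adjusted p = 0.000672). In H460 it was near the detection limit, at 1.28 and 0.784 and then 1.61 and 1.78 CPM, and its call there (0.74, edgeR adjusted p = 0.0449) was lost without normoxia replicate 2 (0.37) and without hypoxia replicate 2 (0.69).

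The other J proteins that changed fell. In RKO 5 of 11 tested J proteins (45.5%) were called lower and 2 (18.2%) higher, against 15.1% and 18.8% of all genes. In H460 3 of 10 (30%) were lower and 2 (20%) higher, near the 27.3% and 24.6% of all genes. DNAJA1, a main cytosolic partner of HSP70, went from 426 and 390 to 183 and 218 CPM in RKO (−1.03 ± 0.16) and from 71.2 and 64 to 28.3 and 27.3 in H460 (−1.28 ± 0.10, edgeR adjusted p = 2.71e-07). DNAJA3, the mitochondrial J protein that works with HSPA9, fell most in H460, from 185 and 174 to 63.5 and 68.9 CPM (−1.44 ± 0.09, edgeR adjusted p = 6.37e-08), and less in RKO (−0.69 ± 0.15), a difference that was called (0.79 ± 0.17, edgeR adjusted p = 0.00405). In A549 it was at 115 and 118 CPM in normoxia and 83 and 72.6 in hypoxia (−0.58 ± 0.17, not called, edgeR adjusted p = 0.152), also without overlap. DNAJB1, an HSF1 target, fell in RKO from 284 and 237 to 121 and 118 CPM (−1.12 ± 0.16) and stayed uncalled in H460 (−0.18 ± 0.12), and the difference was called (−0.89 ± 0.31, edgeR adjusted p = 0.0434). DNAJB6, which suppresses aggregation of polyglutamine proteins and carries the heat shock element shown above, was at 216 and 181 and then 190 and 175 CPM in RKO and was called in no line.

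Of the 6 BAG proteins, BAG1 and BAG2 were called lower in RKO (33.3%, against 15.1% of all genes). In H460 BAG2 was called lower and BAG6 higher (16.7% each), shares below the 27.3% and 24.6% of all genes. None was called in A549, where 0.456% of all genes were lower and 2.22% higher. BAG2, which inhibits the ubiquitin ligase STUB1, fell from 97.9 and 82 to 33.6 and 42.7 CPM in RKO (−1.24 ± 0.18, edgeR adjusted p = 0.000574) and from 43.5 and 39.1 to 12.7 and 12.2 in H460 (−1.73 ± 0.11, edgeR adjusted p = 6.13e-08). In A549 it was at 36.7 and 32 and then 34 and 21.9 (−0.30 ± 0.24, not called), and the difference from H460 was called (1.43 ± 0.28, edgeR adjusted p = 0.00219). BAG1, an exchange factor that links HSP70 to the proteasome, fell in RKO from 52.6 and 54.3 to 19.2 and 27.8 CPM (−1.19 ± 0.20) and was at 32.7 and 33.6 and then 47.8 and 46 in H460, where 0.50 ± 0.09 lay below the fold threshold. The difference between these lines was −1.64 ± 0.24 (edgeR adjusted p = 0.000272). BAG6, which guards proteins bound for membranes, was called higher in H460 only, at 132 and 125 CPM in normoxia and 226 and 212 in hypoxia (0.77 ± 0.09). The BAG6 call was lost with scaling by library totals alone. In RKO BAG6 had −0.19 ± 0.17, and its difference from H460 was called (−0.91 ± 0.21). BAG3, the stress-inducible BAG protein of selective autophagy, was called in no line. Its RKO value of −0.57 ± 0.14 passed the adjusted p but not the fold, and was called without normoxia replicate 2 (−0.61).

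HSP90 split by gene as well as by line. HSP90AB1, the constitutive form, was at 4010 and 3690 CPM in normoxia and 1610 and 1300 in hypoxia in RKO, with the highest normoxic CPM of any member there. It fell to 0.378 times its normoxic level (−1.40 ± 0.19, edgeR adjusted p = 0.000468). In H460 it was at 1240 and 1140 CPM and then 1860 and 1750 (0.60 ± 0.10, 1.52-fold, edgeR adjusted p = 0.000205), without overlap, and in A549 at 1690 and 1160 and then 1650 and 1510 (0.15 ± 0.21, not called). RKO differed from H460 by −1.96 ± 0.26 (edgeR adjusted p = 0.000146) and from A549 by −1.50 ± 0.26 (edgeR adjusted p = 0.00432). The H460 value lay near the fold threshold: the call was lost without normoxia replicate 2 (0.50), without hypoxia replicate 1 (0.57) and with scaling by library totals alone (0.25). HSP90AA1, the stress-inducible form, fell in both lines, from 3430 and 2780 to 1910 and 1730 CPM in RKO (−0.77 ± 0.19) and from 1120 and 1160 to 432 and 479 in H460 (−1.32 ± 0.10, edgeR adjusted p = 2.65e-07). The RKO call was lost without normoxia replicate 1 (−0.61, edgeR adjusted p = 0.117). In A549 HSP90AA1 was at 2570 and 1450 CPM in normoxia and 2830 and 1460 in hypoxia, so that replicate 1 was the higher in both conditions.

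**Figure D3:**
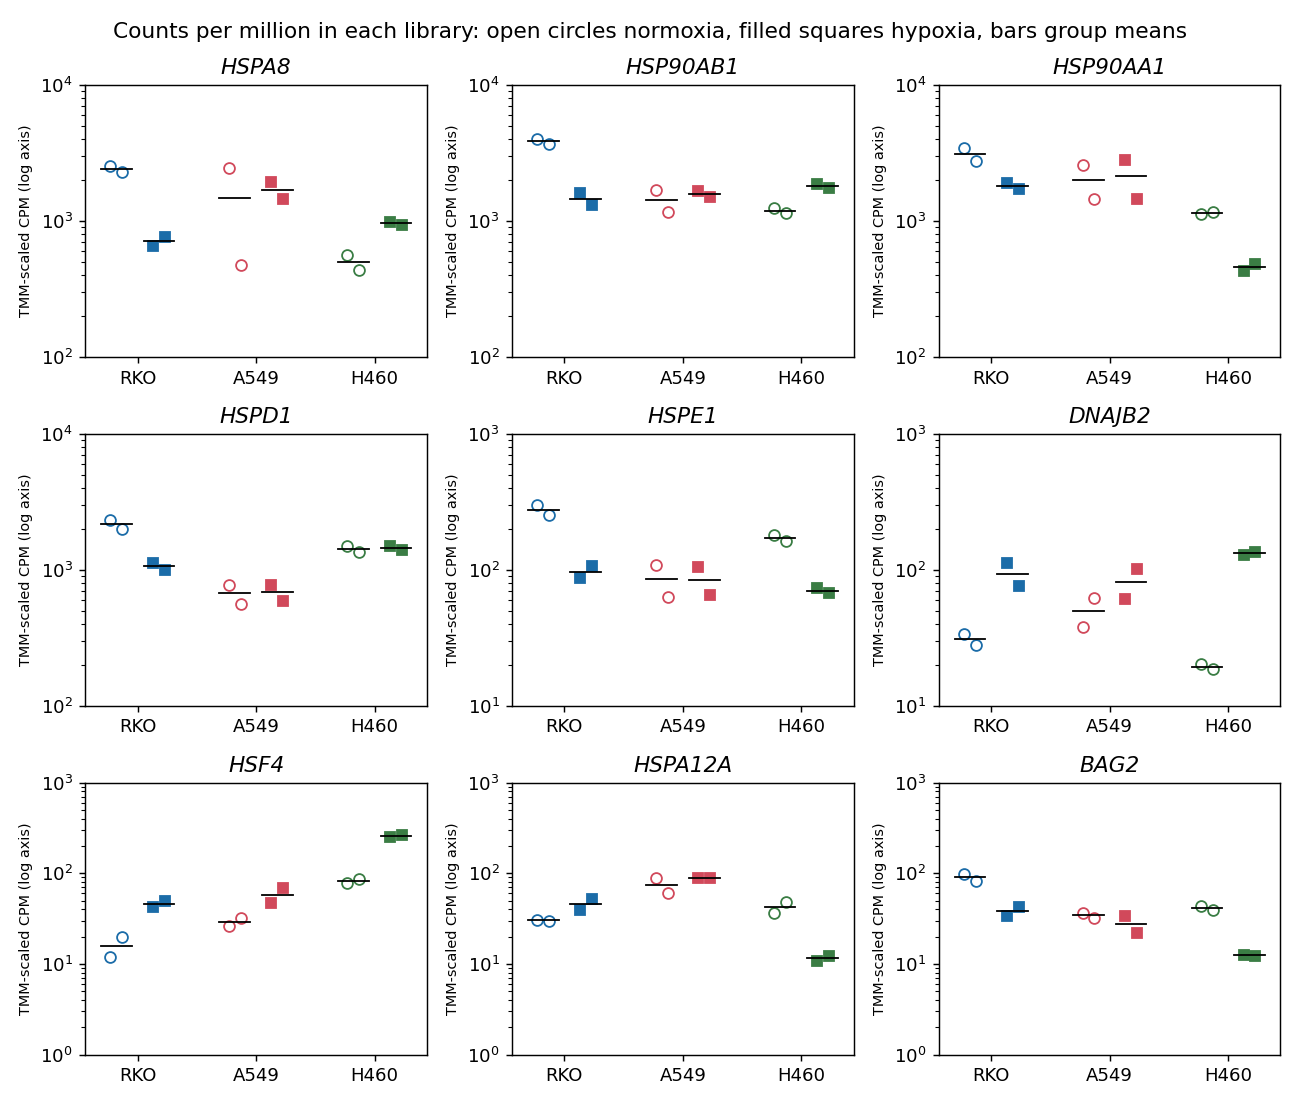
TMM-scaled CPM on a log axis in each of the 12 libraries for 9 chaperone genes; open circles are normoxia, filled squares hypoxia, replicate 1 left of replicate 2, and bars the mean of 2 libraries. HSPA8 lies at 2550 and 2280 in normoxic RKO and at 659 and 763 in hypoxia, and in A549 its normoxic replicates lie at 2460 and 477.

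The TRiC subunits fell together in RKO. All 8 were called lower there, against 15.1% of all genes, with log2 fold changes from −1.31 to −0.63 and a median of −1.05. CCT6A fell the most, from 629 and 560 to 223 and 258 CPM (−1.31 ± 0.16, edgeR adjusted p = 0.000318), and CCT8 the least, from 503 and 425 to 326 and 273 (−0.63 ± 0.17). The CCT8 call was lost without normoxia replicate 1 (−0.50) and without hypoxia replicate 2 (−0.49). In H460 the subunits, which sit in equal numbers in the complex, did not move as 1 group. There 4 of 8 (50%) were called lower, against 27.3% of all genes, and the values ran from −1.39 to 0.18. CCT5 fell from 491 and 480 to 176 and 195 CPM (−1.39 ± 0.09, edgeR adjusted p = 1.17e-07), while CCT8 was at 206 and 206 and then 238 and 229 (0.18 ± 0.09, not called). CCT6A (−1.06 ± 0.09), CCT2 (−0.84 ± 0.09) and CCT7 (−0.72 ± 0.09) were the other 3 called. With scaling by library totals alone, which moved the median of all H460 genes by −0.35, CCT3 (−0.79) and TCP1 (−0.72) were called as well. In A549 none of the 8 was called, although all 8 values were negative, from −0.41 to −0.05. CCT5 differed between A549 and H460 by 1.11 ± 0.23 (edgeR adjusted p = 0.0034), and TCP1 between RKO and A549 by −1.16 ± 0.21 (edgeR adjusted p = 0.00594). CCT3, the subunit with the highest RPKM averaged over the 12 libraries, was called in RKO alone. The difference between lines was not called for CCT3 in the fit without the replicate block, but was with it, for RKO against A549 (−0.60, edgeR adjusted p = 0.0108) and against H460 (−0.36, edgeR adjusted p = 0.0437).

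The mitochondrial chaperonin HSPD1 and its lid HSPE1, which lie head to head on chromosome 2, were both lower in RKO, while in H460 HSPE1 alone was called. In RKO HSPD1 went from 2330 and 2000 to 1120 and 1000 CPM (−1.03 ± 0.18, edgeR adjusted p = 0.00158) and HSPE1 from 297 and 254 to 86.9 and 107 (−1.50 ± 0.17, edgeR adjusted p = 0.000193). In H460 HSPE1 went from 180 and 163 to 72.9 and 67.2 CPM (−1.29 ± 0.09, edgeR adjusted p = 1.81e-07), while HSPD1 was at 1500 and 1360 and then 1500 and 1400 (0.02 ± 0.10, not called). The near-zero HSPD1 value depends on TMM scaling, since library totals alone moved the median of all H460 genes by −0.35. With that scaling HSPE1 was still called lower and HSPD1 was still not called. In A549 HSPD1 was at 777 and 565 and then 777 and 591, and HSPE1 at 108 and 62.9 and then 104 and 65.3, with replicate 1 the higher in each. HSPD1 differed between RKO and H460 by −1.01 ± 0.26 (edgeR adjusted p = 0.00949), and for HSPE1 the same difference was −0.17 ± 0.33 and was not called (edgeR adjusted p = 0.758). HSPE1 overlaps the readthrough gene HSPE1-MOB4, and reads that fit both are lost in counting. HSPD1, HSPE1, HSPA8 and both HSP90 genes have many processed pseudogenes that can take or remove reads.

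Of the small heat shock proteins, 1 was called, HSPB6, lower in H460, where 5 were tested (20%, against 27.3% of all genes). None of the 2 tested in RKO or the 3 tested in A549 was called (edgeR, with HSPB1 in each line at an unadjusted p under 0.05). HSPB1, with the highest normoxic RPKM of them in each line, was at 296 and 287 and then 229 and 217 CPM in RKO (−0.39 ± 0.15), at 315 and 226 and then 395 and 387 in A549 (0.53 ± 0.20) and at 50.6 and 38.2 and then 67.8 and 63.8 in H460 (0.57 ± 0.12). None was called, and the conditions did not overlap in any line. In H460 HSPB1 passed the adjusted p but not the fold, and it was called without normoxia replicate 1 (0.74), without hypoxia replicate 2 (0.64) and with DESeq2 (0.60). The RKO value differed from A549 by −0.87 ± 0.24 (edgeR adjusted p = 0.0376) and from H460 by −0.91 ± 0.24 (edgeR adjusted p = 0.0107). HSPB6, the small heat shock protein of smooth muscle, was tested in H460 alone, where it fell from 25.7 and 21.4 to 12.5 and 15.6 CPM (−0.74 ± 0.14), a call lost without hypoxia replicate 1 (−0.58). HSPB8, the partner of BAG3, and HSPB11, which is a part of the intraflagellar transport complex, were called in no line in which they were tested.

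Counted over the 52 members tested in the fit of all 12 libraries, the response to hypoxia differed between RKO and A549 for 15 (28.8%, against 14.6% of all 15595 genes), between RKO and H460 for 15 (28.8%, against 37.6%) and between A549 and H460 for 14 (26.9%, against 36%). In the first pair 14 of the 15 were lower in RKO. The pairs share libraries. For the counts under other settings that follow, the share of all genes was not computed, so they are not set against a background. With the replicate block the first count was 28 and the last 25. Without normoxia replicate 1 of A549 they were 28 and 24. The first count fell to 6 or 7 without RKO normoxia replicate 1, RKO hypoxia replicate 1, A549 normoxia replicate 2 or A549 hypoxia replicate 1, and the last to 8 or 9 without H460 normoxia replicate 1, H460 normoxia replicate 2 or H460 hypoxia replicate 1.

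The lines also started from different levels. By deposited RPKM, which is scaled by gene length and library total, HSP90AB1 was the highest member in normoxic RKO (mean 1290, n = 2), followed by HSPA8 (952), HSPD1 (862) and HSP90AA1 (739), although the lower HSPA8 library (916) and the higher HSPD1 library (914) were nearly equal. In H460 HSPD1 (663) was followed by HSP90AB1 (464), HSPA9 (341) and HSP90AA1 (316). In A549 HSPA8 (611), HSP90AB1 (508) and HSP90AA1 (507) could not be ordered, since the replicates of HSPA8 overlapped both others. In the fit of all libraries 33 of 52 members (63.5%) differed in normoxic level between RKO and A549, against 60.2% of all genes. Between RKO and H460 it was 35 (67.3%, against 61.9%), and between A549 and H460 28 (53.8%, against 52.1%). These shares lie near those of all genes, so a different level is not particular to the members. Of the differing members 21 were higher in RKO than in A549, 26 higher in RKO than in H460 and 18 higher in A549 than in H460. The share of all genes in each direction was not computed. HSP90AB1 was 2.52-fold higher in RKO than in A549 and 2.72-fold higher than in H460. HSPB1 was 5.53-fold higher in RKO than in H460 (edgeR adjusted p = 1.45e-08) and did not differ detectably between RKO and A549 (log2 0.01 ± 0.17). HSF4 had the reverse order, 6.23-fold higher in H460 than in RKO. Some members were present in some lines and close to 0 in others. DNAJA4 had a normoxic mean of 13.4 RPKM in RKO, 0.0194 in A549 and 0.0154 in H460, HSPB8 had 0.0274, 10.8 and 18.9 in the same order, HSPB6 0.0662, 0.139 and 18.2, and HSPA2 0.0743, 15.8 and 0.748.

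**Figure D4:**
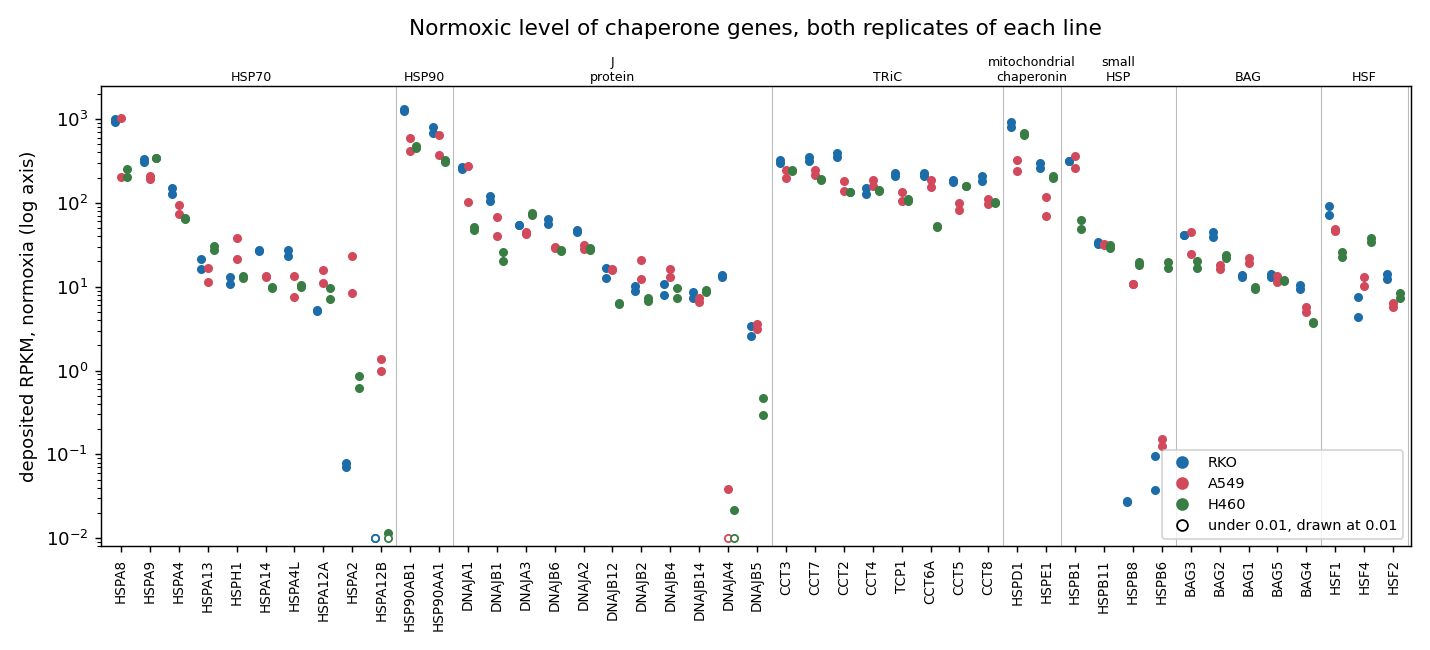
Deposited RPKM in normoxia on a log axis for chaperone genes with a mean of at least 1 RPKM in some line, both replicates of each line, grouped by family, without the 4 rows that pool alternate haplotypes. HSP90AB1 stands highest in RKO (mean 1290), and DNAJA4, HSPB8, HSPB6 and HSPA2 span the axis between lines.

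A list of 41 partner genes (HSP90 co-chaperones, other cytosolic co-chaperones, prefoldin, chaperonin cofactors, mitochondrial partners and crystallins) was counted beside the chaperones. In RKO 21 of 39 tested partners (53.8%) were called lower and 0 higher (edgeR, also 0 higher at an unadjusted p under 0.05), in A549 0 and 0 of 39 (edgeR, 4 lower and 0 higher at an unadjusted p under 0.05), and in H460 16 of 40 (40%) lower and 3 (7.5%) higher, against the background shares given above for each line. The HSP90 co-chaperones had 10 of 15 lower in RKO and 7 of 15 in H460. AHSA1, which stimulates the ATPase of HSP90, fell from 349 and 308 to 161 and 165 CPM in RKO (−1.01 ± 0.15) and from 76.2 and 77.1 to 34.9 and 37.5 in H460 (−1.08 ± 0.09, edgeR adjusted p = 6.05e-07). FKBP5, a co-chaperone of steroid receptors, fell the most of the list, in H460 from 32.9 and 38.4 to 3.37 and 3.47 CPM (−3.38 ± 0.14, edgeR adjusted p = 3.08e-09), and by 0.62 in RKO. HSPBP1, an exchange factor for HSP70, fell from 48.3 and 41.4 to 14.4 and 15.2 CPM in RKO (−1.60 ± 0.18). The 3 that rose in H460 were the small heat shock protein CRYAB, from 17.4 and 15.4 to 61.4 and 56.9 CPM (1.86 ± 0.10), the mitochondrial protease LONP1 (0.66 ± 0.09) and the prefoldin subunit PFDN5 (0.67 ± 0.09). PFDN6 of the same complex fell there, by 0.82. CRYAB did not pass the filter in RKO or A549.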

How the data were processed

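Poly(A)+ RNA of 12 libraries (3 lines, normoxia or hypoxia, 2 replicates each) was measured by strand-specific RNA-seq. Per the labels and the study's methods, the authors aligned reads to GRCh37/hg19 with TopHat2 (2.0.13), removed alignments of low mapping quality and counted reads per gene with HTSeq (0.6.1). The deposited table holds counts and RPKM; the deposited RPKM were found to equal counts divided by gene length and library total. Here counts were tested in edgeR (4.0.16, R 4.3.3) with TMM factors, the quasi-likelihood test and, in each line, genes over 0.5 CPM in at least 2 libraries. Lines were compared in a fit of all 12 libraries, where a difference in response was called at an adjusted p under 0.1 and a normoxic level at that and a fold over 1.5. DESeq2 (1.42.0), limma (3.58.1) on log2(RPKM + 0.1) and log2(RPKM + 1), other scalings, filters and thresholds, and leaving out each library were alternatives, and the fit was tested on simulated data. Libraries held 27350424 to 41757584 counts; counting error is small beside replicate spread for all but low genes. Same-numbered libraries deviated together (correlation over all genes 0.343 in RKO, 0.35 in A549 and 0.12 in H460), so the number was also used as a block. Named genes were those called alike in all lines or in opposite directions, the 4 highest and lowest called per line (mean of at least 100 counts), the smallest interaction p-values, the member of each family with the highest mean RPKM, HSF1 and HSF2. Others, such as HSPA1A, HSPA2, HSPA4, HSPA9 and HSPB6, were named after their values were seen. Members and lists were chosen with earlier results of these data known.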

Additional observations from a re-analysis of the deposited data

Results flagged for a closer look

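The response to hypoxia was compared between lines by the interaction term of the fit of all libraries (edgeR, adjusted over all 15595 genes). Of 52 chaperone genes, 15 differed (28.8%, against 14.6% of all genes) when RKO was set against A549. When RKO was set against H460, 15 differed (28.8%, against 37.6%), and 14 did (26.9%, against 36%) when the lung lines were compared. The shares in both comparisons with H460 lay below those of all genes. The differences in log2 fold change were given with their groups in the report. RKO was below H460 for HSPA8 (−2.66), HSP90AB1 (−1.96), BAG1 (−1.64), BAG6 (−0.91) and HSPB1 (−0.91), and above it for HSPA12A (2.50). RKO was below A549 for HSPE1 (−1.44), TCP1 (−1.16), HSPD1 (−1.01) and CCT6A (−0.85, edgeR adjusted p = 0.0648), and above it for DNAJB5 (1.18, edgeR adjusted p = 0.0469). A549 was above H460 for BAG2 (1.43), DNAJA1 (1.31, edgeR adjusted p = 0.0538), CCT5 (1.11) and DNAJA3 (0.85), and below it for DNAJB2 (−2.07). For DNAJA1 and HSPA8 the A549 replicates differed by 2.73 and 5.15 times in normoxia. The A549 log2 fold change of DNAJA1 was 0.03 with all libraries. It was 0.93 without normoxia replicate 1 and −0.52 without normoxia replicate 2. With the replicate block the DNAJA1 difference, A549 minus H460, was 1.43 (edgeR adjusted p = 0.000618). The part of the replicates in the A549 differences was not tested.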

How the results depend on the processing

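With 2 libraries per group, every fold change rests on a pooled spread, and where a library is left out the lone library is assumed to vary like the others. The replicate block changed no call of a member in RKO (3 higher and 27 lower) or H460 (7 and 19), where all 30 and 26 calls were shared. None of the 30 members called in RKO, 26 in H460 and 1 in A549 changed sign in any of the 13 alternative fits of its line in which it was tested. Scaling by library totals alone shifted the median of all genes in H460 by −0.35 and left the others within 0.09. In H460 it gave 3 higher and 21 lower members, against 14.7% and 40.9% of all genes, and a median of −0.53. The cause of the changes listed here was not tested.

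For the counts with other filters, with limma or at other fold thresholds, the share of all genes was not computed. They are not set against a background. In RKO the higher count was 5 with no minimum fold change and the lower count 14 at a fold change over 2. In A549 the higher count was 2 with DESeq2 (against 4.27% of all genes), with no filter and in the fit of all libraries (against 6.14%). It was 8 with the replicate block (against 8.34%) and 0 with library totals (against 1.06%). It was also 0 over 5 CPM, with limma at either pseudocount (0.1 or 1) and at a fold change over 2. Leaving out 1 library also changed the counts in each line, and the A549 counts are given above with the shares of all genes. In H460 the higher count was 4 over 5 CPM, 3 with limma at either pseudocount, 12 with no minimum fold change and 2 at a fold change over 2, where the lower count was 9. The H460 median was −0.52 and −0.47 with limma at a pseudocount of 0.1 and 1. For the interaction counts that follow, the share of all genes was not computed. The RKO and A549 interaction count was 25 with no filter and 28 with the replicate block, and 6 to 28 without 1 library. The A549 and H460 count was 25 with the block and 8 to 24 without 1 library. In a setting chosen after the data were seen, leaving out the 4 genes whose rows pool alternate haplotypes gave 3 higher and 25 lower for RKO, 5 higher and 17 lower for H460, and 1 higher and 0 lower for A549. Summing HSPA1A and HSPA1B gave a log2 fold change of −0.94 (RKO), −0.89 (H460) and 0.35 (A549).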
